A study of Mus musculus with 30 samples.

Results

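The genes described here encode the Wnt ligands, the receptors that bind them and the secreted proteins that block or strengthen that binding. They were chosen from the rows of the deposited table by a rule that reads symbols and no measured values. Earlier results of these data were known when it was chosen. The rule takes in Wnt ligands, Frizzled receptors (Fzd), Dickkopfs (Dkk), secreted Frizzled-related proteins with an Sfrp symbol (Sfrp) and R-spondins (Rspo), with Wif1, Lrp5 and Lrp6. Frzb, a secreted Frizzled-related protein with another symbol, was not taken in. The rule found 44 of 55291 gene symbols. These were 19 Wnt ligands, 10 Frizzled receptors, 2 Lrp co-receptors, 4 R-spondins, 4 Dickkopfs and a group of 5 made up of Sfrp1, Sfrp2, Sfrp4, Sfrp5 and Wif1.

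The study measured bulk RNA from tumours of 10 transplanted mouse lines, with 3 libraries a line and 30 in all, to ask which cancers might suit OK-432, a killed streptococcal preparation. EMT6 is a mammary, Renca a renal and LL2 a lung carcinoma line, CMS5a is a fibrosarcoma line, MC38 and CT26 are colon carcinoma lines, and B16F1 and B16F10 are sublines of 1 melanoma. MC38OVA and CT26NYESO1 are derivatives named for the antigens ovalbumin and NY-ESO-1. Tumour cells were injected under the skin of BALB/cJ or C57BL/6J mice, tumours were collected once they measured 10 mm, and some mice had OK-432 in the tumour for 24 hours. The labels tie neither host strain nor OK-432 to single libraries and give no age. Line, host strain and any OK-432 treatment cannot be told apart here, and a group stands for 1 transplanted line rather than for a type of cancer.

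Wnt proteins are lipid-modified secreted ligands that bind a Frizzled receptor and, for signalling through β-catenin, also an Lrp5 or Lrp6 co-receptor on the same cell. R-spondins keep these receptors at the cell surface, Dkk1 and Dkk2 bind the Lrp co-receptors, and Sfrps and Wif1 bind the Wnt ligands themselves. The pathway is known for its part in the stem cells of the gut, the growth of mammary and renal epithelium and the formation of pigment cells.

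All libraries carry the label of CD45+ immune cells from tumours. The 10 leukocyte markers, among them Ptprc for CD45, each averaged 1 TPM (a gene's share of all transcripts in a library, corrected for gene length) or more in all 10 lines, and their sum ran from 299 TPM in B16F1 to 1946 TPM in MC38OVA. Markers of other cells were present as well, which goes against a label of leukocytes alone. The 5 melanocyte markers summed to 11119 TPM in B16F10 and 4189 TPM in B16F1, against at most 1.28 TPM in a library of any other line. The 5 epithelial markers summed to 1580 TPM in Renca, 673 TPM in EMT6 and 242 TPM in LL2, and the 8 fibroblast markers ran from 14.2 TPM in B16F10 to 4966 TPM in CMS5a. In bulk RNA, fewer cells of a type and less RNA per cell cannot be told apart, so each level below is that of the whole suspension. TPM keep no read counts, so depth is unknown. Between 12065 and 14602 genes reached 1 TPM in a library, mitochondrial transcripts took 9.17% to 39.0% of the total (highest in B16F1 replicate 2), and haemoglobin transcripts took 0.0222% to 7.70%. No label states that the replicates of a line were separate mice, and p-values measure the spread between these samples, which may be technical.

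Many members were barely present. Of the 44, 16 lay below 1 TPM in all 30 libraries, and Wnt2b and Wnt4 reached 1 TPM in 1 and 2 libraries. Among these 18 untested members were Wnt1, Wnt3 and Wnt3a, the classical activators of β-catenin signalling, with highest values of 0.130, 0.0647 and 0.126 TPM. Dkk1 and Dkk4 were listed at 0 in all 30 libraries. The other 26 members reached 1 TPM in at least 3 libraries and were tested. At the other end, Fzd2, Fzd7, Lrp5 and Lrp6 were at 1 TPM or more in all 30 libraries.

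Lines were compared with limma on log2(TPM + 1) over all 17944 genes that passed this filter. A gene was called where its Benjamini-Hochberg adjusted p was under 0.05 and its log2 difference at least 1. The pseudocount of 1 understates the change of genes with low levels, and a difference of mean logs can stand apart from a ratio of mean TPM. Over the 10 lines, 26 of the 26 tested members were called, where 85.5% of all genes tested were called, with a median range of line means of 2.78 for members and 1.71 for all genes. Fzd8, Rspo2, Wnt5b and Wnt11 passed the filter through EMT6 alone and Sfrp5 through Renca alone, so these 5 had to differ between lines. In 18 of the 26 members, these 5 included, the 3 libraries of 1 line lay above the other 27 libraries. Among the other 21 members the number was 13. The share over all genes tested was 25.9%, from which genes that passed through 1 line were not left out. The 3 pairs of related lines make such a pattern less easy to meet for any gene.

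**Figure D1:**
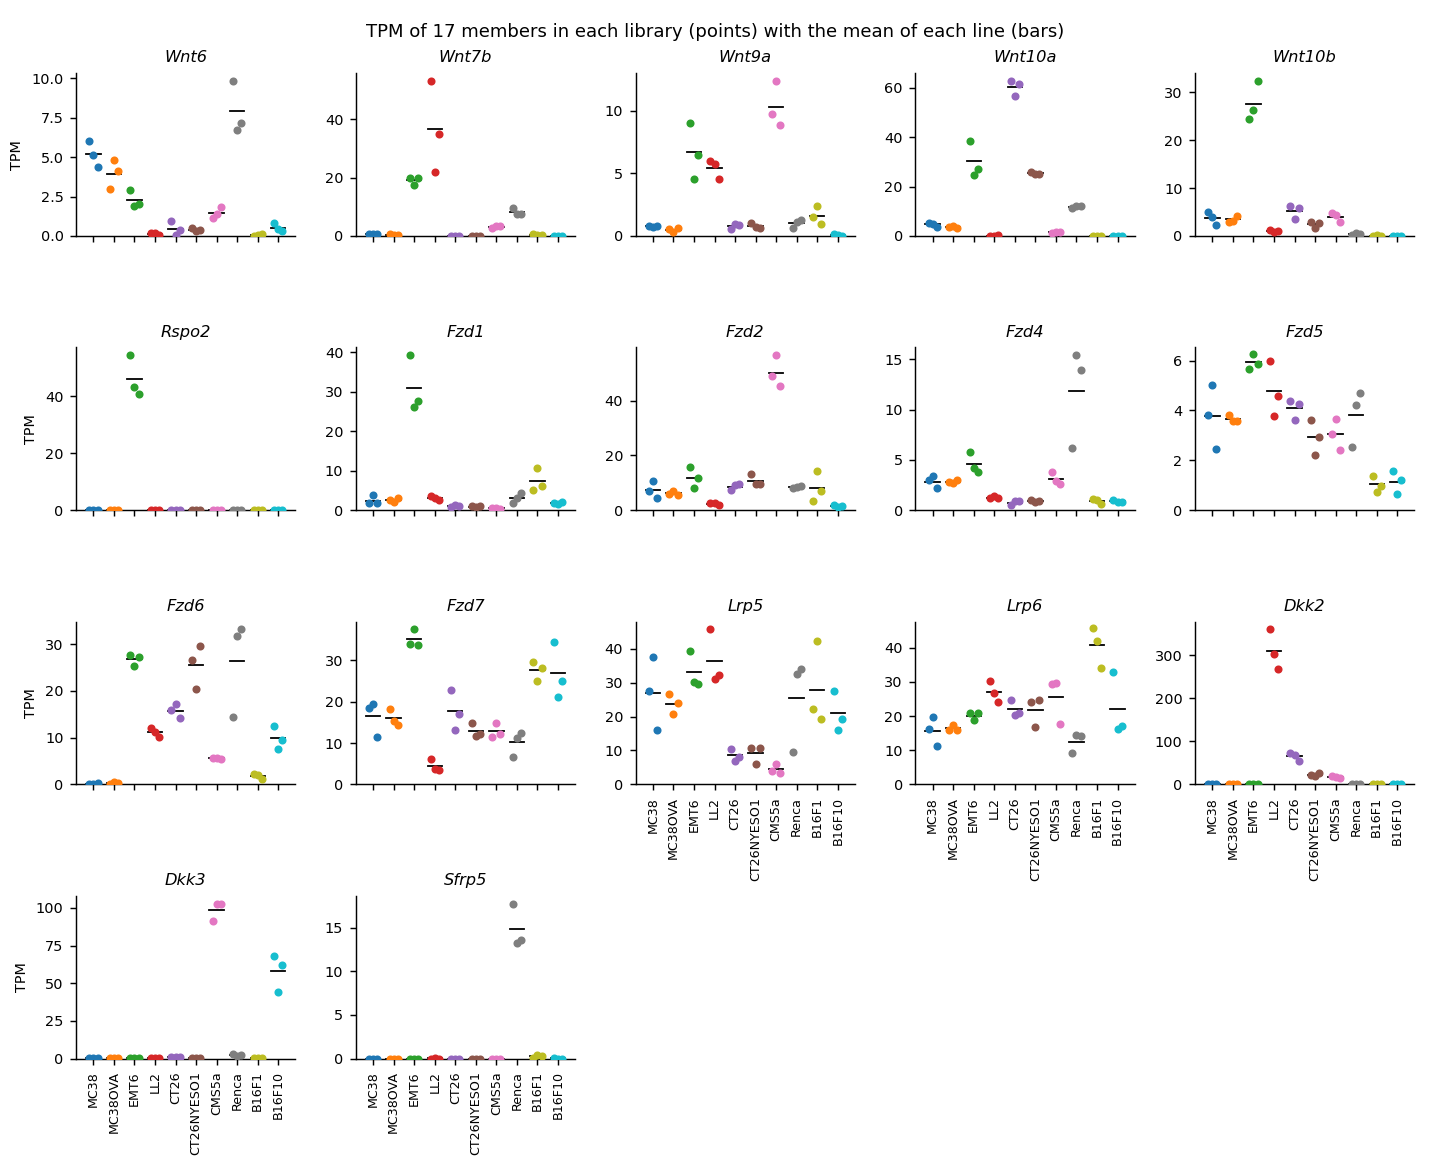
TPM (linear axis, starting at 0) of the 17 members with a line mean of at least 5 TPM. Each point is 1 library, colours mark the 10 lines and black bars are means of 3 libraries, and Rspo2 stands out in EMT6 (41.0 to 54.5 TPM), Dkk2 in LL2 (268 to 360 TPM) and Sfrp5 in Renca (13.2 to 17.7 TPM).

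Promoter sequences are shown for 4 members whose top line stood clear of all other lines, Fzd1 and Wnt10b (both highest in EMT6), Dkk2 (LL2) and Sfrp5 (Renca). Each is the 250 bases before the RefSeq transcription start on GRCm38.p6, which is the mm10 build of the data, read 5′ to 3′ on the gene's own strand. Capitals mark TATAAA, the core of a TATA box. The windows are chr5:4758217-4758466 (minus strand) for Fzd1, chr15:98778151-98778400 (minus) for Wnt10b, chr3:132085042-132085291 (plus) for Dkk2 and chr19:42202253-42202502 (minus) for Sfrp5.
Fzd1: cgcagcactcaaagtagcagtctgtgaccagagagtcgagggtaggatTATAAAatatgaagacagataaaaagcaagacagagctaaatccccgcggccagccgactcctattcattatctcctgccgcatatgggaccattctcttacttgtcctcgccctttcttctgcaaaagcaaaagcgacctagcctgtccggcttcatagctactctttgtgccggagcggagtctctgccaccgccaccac
Wnt10b: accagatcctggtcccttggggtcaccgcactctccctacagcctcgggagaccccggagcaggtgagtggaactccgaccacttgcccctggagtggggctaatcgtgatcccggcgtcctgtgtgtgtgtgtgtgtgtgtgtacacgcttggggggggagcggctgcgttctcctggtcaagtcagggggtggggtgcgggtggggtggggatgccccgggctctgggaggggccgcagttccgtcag
Dkk2: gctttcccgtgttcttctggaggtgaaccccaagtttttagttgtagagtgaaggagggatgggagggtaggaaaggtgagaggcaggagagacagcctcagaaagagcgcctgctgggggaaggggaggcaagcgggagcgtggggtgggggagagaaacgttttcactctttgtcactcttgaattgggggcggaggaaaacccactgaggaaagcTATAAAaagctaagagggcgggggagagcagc
Sfrp5: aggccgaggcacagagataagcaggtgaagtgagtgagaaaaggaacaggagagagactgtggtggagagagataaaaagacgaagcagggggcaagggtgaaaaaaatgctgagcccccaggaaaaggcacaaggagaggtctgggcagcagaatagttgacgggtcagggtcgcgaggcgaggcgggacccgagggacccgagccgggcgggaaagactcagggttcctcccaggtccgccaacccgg
The Dkk2 window held TATAAA from 32 to 27 bases before the start, and the Fzd1 window from 202 to 197 bases before it. The Wnt10b and Sfrp5 windows held none. The search covered both strands and also CTTTGAT and CTTTGAA, forms of the site of TCF/LEF factors that differ in their last letter alone. RefSeq promoter entries matched 28 of the 44 members by symbol, in 31 windows, and among the members drawn by library Wnt7b, Wnt10a, Rspo2, Fzd2, Fzd6, Lrp5, Lrp6 and Dkk3 had no entry. TATAAA was found in 5 of the 31 windows, against 12.37% of all 32851 windows, and CTTTGAT or CTTTGAA in 3 of 31 (Wnt5b, Wnt11 and Dkk1), against 7.48% of all. Median GC content was 68.0% in the members' windows and 52.4% in all windows. A match of letters is a description and not a binding site.

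The total of Wnt ligand transcripts differed widely between lines. Wnt10a led in CT26, CT26NYESO1, EMT6 and Renca, Wnt6 in MC38 and MC38OVA, Wnt9a in CMS5a and B16F1, Wnt7b in LL2 and Wnt5b in B16F10. Summed over the 19 ligands, EMT6 had 91.6 ± 11.2 TPM (SD, n = 3), CT26 67.7 ± 5.06 TPM and LL2 49.1 ± 16.9 TPM. Renca, CT26NYESO1, CMS5a, MC38 and MC38OVA had means of 32.5, 30.1, 20.9, 17.5 and 13.7 TPM. The melanoma lines had least, 4.15 ± 0.66 TPM in B16F1 and 1.80 ± 0.58 TPM in B16F10. Wnt10a made up 89.2% of the sum in CT26 and 84.4% in CT26NYESO1, while Wnt7b made up 74.7% in LL2 and Wnt9a 49.4% in CMS5a. EMT6 was the most mixed, with 7 ligands at a mean of 1 TPM or more and Wnt10a in the lead at 33.0%. No ligand averaged 1 TPM in B16F10.

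**Figure D2:**
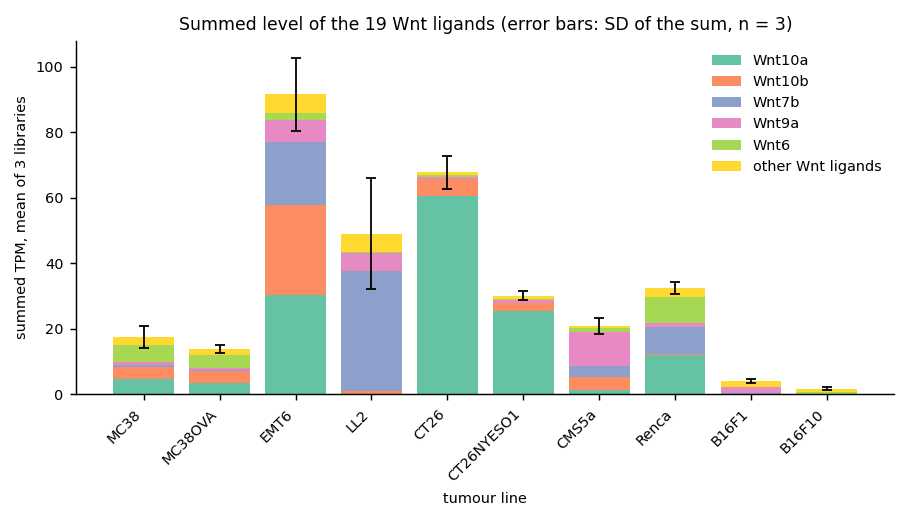
Summed TPM of the 19 Wnt ligands in each line (bars from 0, mean of 3 libraries, error bars the SD of the sum), with colours for 5 ligands and the rest. Wnt10a fills most of the CT26 and CT26NYESO1 bars and Wnt7b most of the LL2 bar, while both melanoma bars stay under 5 TPM.

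Wnt10a, a ligand known from teeth and hair follicles (chr1:74791516-74804179), was highest in CT26, at 62.8, 56.9 and 61.5 TPM in the 3 libraries. It measured 38.6, 24.8 and 27.2 TPM in EMT6, 25.8, 25.2 and 25.2 TPM in CT26NYESO1 and 11.4, 12.3 and 12.1 TPM in Renca. MC38 had 5.45, 4.89 and 3.66 TPM, MC38OVA 3.74, 3.94 and 3.05 TPM and CMS5a 1.29, 1.49 and 1.48 TPM. The CT26 libraries overlapped with none of the others, and EMT6 and CT26NYESO1 overlapped with each other. LL2 (0 to 0.225 TPM) and B16F10 (0 to 0.0653 TPM) lay near 0, and all 3 B16F1 libraries were listed at 0. Against the mean of the other 9 lines, Wnt10a was higher in CT26 by 3.77 ± 0.12 on the log2(TPM + 1) scale (SE of the limma fit, adjusted p = 3e-19). It was also called higher in EMT6 (2.66), CT26NYESO1 (2.42) and Renca (1.28), although the Renca mean of 11.9 TPM lay below the 14.0 TPM that the other lines averaged. It was called lower in LL2 (-2.66), B16F10 (-2.77), CMS5a (-1.41) and B16F1.

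Wnt7b, a ligand of lung and kidney epithelium (chr15:85535437-85582473), was highest in LL2, at 53.1, 21.9 and 35.1 TPM. EMT6 had 19.8, 17.4 and 20 TPM, Renca 9.74, 7.41 and 7.65 TPM and CMS5a 2.78, 3.44 and 3.33 TPM. In the other 6 lines no library exceeded 0.832 TPM. The 4 lines did not overlap, though the lowest LL2 library stood only just above the highest of EMT6, and the LL2 libraries spread most. Wnt7b was called higher in LL2 by 3.87 ± 0.15 (SE, adjusted p = 2.9e-17 in the limma fit), in EMT6 by 2.96 and in Renca by 1.71. It was called lower in the 6 lines below 1 TPM, from -1.84 in B16F10 to -1.0 in MC38, differences set against a mean that holds the 3 high lines. The call in MC38 was lost without MC38 replicate 3 (-0.96), LL2 replicate 1 (-0.97), B16F1 replicate 1, MC38OVA replicate 1, Renca replicate 1, EMT6 replicate 1 or 3 or CMS5a replicate 2 or 3 (from -0.986 to just short of -1), and with a pseudocount of 0.1 (-0.65). The 3 lines with most Wnt7b were also the 3 with most epithelial marker RNA. Over the 5 epithelial markers, library sums were 177 to 321 TPM in LL2 (3 of 5 genes averaging 1 TPM or more), 622 to 712 TPM in EMT6 (5 of 5) and 1323 to 2023 TPM in Renca (4 of 5), and at most 15.5 TPM elsewhere, with Krt19 listed at 0 in MC38OVA. The order within the 3 lines was the reverse of that for Wnt7b, and the part of epithelial cells in its level was not tested.

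Wnt10b, which is known for holding back fat cell formation and driving mammary growth (chr15:98770712-98778150), was highest in EMT6, at 24.4, 26.2 and 32.4 TPM. CT26 had 6.20, 3.58 and 5.75 TPM, CMS5a 4.70, 4.32 and 2.98 TPM and CT26NYESO1 3.01, 1.71 and 2.64 TPM. MC38 measured 4.96, 3.92 and 2.23 TPM, MC38OVA 3.01, 3.20 and 4.23 TPM and LL2 1.21, 0.749 and 0.958 TPM. EMT6 stood clear of all other lines, while CT26, CMS5a, MC38 and MC38OVA overlapped. Renca (0.246 to 0.604 TPM), B16F1 (0 to 0.114 TPM) and B16F10 (0 to 0.0357 TPM) were lowest. Wnt10b was called higher in EMT6 by 3.43 ± 0.16 (SE, adjusted p = 6.5e-16 in the limma fit). It was called lower in Renca (-1.37), B16F1 (-1.87) and B16F10 (-1.90), against a mean that holds EMT6.

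Wnt9a, a ligand known from joints and blood stem cell development (chr11:59306928-59333552), was highest in CMS5a, at 9.73, 12.4 and 8.88 TPM. EMT6 followed at 9.04, 4.54 and 6.46 TPM and LL2 at 5.94, 5.73 and 4.53 TPM. B16F1 had 1.5, 2.42 and 0.943 TPM and Renca 0.654, 1.11 and 1.30 TPM. The highest EMT6 library overlapped with CMS5a, and EMT6 with LL2. CT26NYESO1 had 1.02, 0.748 and 0.601 TPM, and the 12 libraries of MC38, MC38OVA, CT26 and B16F10 all lay below 1 TPM (0 to 0.972). Wnt9a was called higher in CMS5a by 2.26 ± 0.15 (SE, adjusted p = 1.9e-12 in the limma fit), in EMT6 by 1.60 and in LL2 by 1.35, and lower in B16F10 (-1.53).

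Wnt6, an epithelial ligand that lies next to Wnt10a on chromosome 1 (chr1:74771892-74785322), was highest in Renca, at 9.84, 6.75 and 7.18 TPM. MC38 had 6.04, 5.15 and 4.38 TPM and MC38OVA 2.96, 4.83 and 4.09 TPM. EMT6 had 2.89, 1.92 and 2.04 TPM and CMS5a 1.11, 1.41 and 1.87 TPM. Renca stood above every other library, MC38 and MC38OVA overlapped, and the 15 libraries of LL2, CT26, CT26NYESO1, B16F1 and B16F10 lay between 0 and 0.925 TPM. Wnt6 was called higher in Renca by 2.05 ± 0.15 (SE, adjusted p = 3.1e-12 in the limma fit), in MC38 by 1.47 and in MC38OVA by 1.11, and lower in LL2 (-1.21) and B16F1 (-1.32). Without MC38OVA replicate 2, the difference in MC38OVA was 0.98, below the threshold. Wnt6 overlaps the antisense gene Gm29539, and Wnt7b overlaps AU022754. No source used here says whether strand was used in quantification, so reads of such partners cannot be told apart.

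The other tested ligands were low. Wnt5a, the best known ligand of β-catenin-independent signalling, averaged 3.49 ± 1.19 TPM (SD, n = 3) in LL2, where all libraries lay above those of other lines, and it was called higher there by 1.77. Wnt11, which also signals without β-catenin, and Wnt5b averaged 3.26 TPM and 1.93 TPM in EMT6 and below 1 TPM in the other 9 lines. The Wnt5b difference in EMT6 (1.11) was 0.89 without EMT6 replicate 1, below the threshold. Wnt5a, Wnt5b and Wnt11 each overlap another gene (Gm2670, Fbxl14 and Gm8398), so their levels are uncertain. Untested Wnt4, a ligand of the kidney and female reproductive tract, averaged 1.20 TPM in B16F1 and at most 0.186 TPM elsewhere.

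Rspo2, an R-spondin that holds Frizzled and Lrp receptors at the cell surface through Lgr receptors (chr15:43020794-43170826), was present in EMT6 alone at 1 TPM or more. The 3 EMT6 libraries had 54.5, 43.2 and 41.0 TPM, 23 of the other 27 libraries were listed at 0, and the highest of those was 0.0442 TPM in MC38OVA replicate 1. EMT6 therefore did not overlap with any other line, and the difference was 5.54 ± 0.07 on the log2(TPM + 1) scale (SE, adjusted p = 1.3e-28 in the limma fit). The size of the difference against lines at or near 0 rests on the pseudocount. Rspo2 passed the filter through EMT6 alone, so the p-value is no separate support for it. The other 3 R-spondins stayed below 1 TPM in all libraries, with Rspo1 highest at 0.882 TPM. EMT6 also had the highest sum of the 4 pericyte and smooth muscle markers, 276 to 407 TPM a library against at most 87.1 TPM elsewhere. Acta2 alone gave 347 TPM of the EMT6 mean, while Rgs5, Des and Myh11 averaged 0.563, 0.720 and 0.00579 TPM. The part of such cells in the Rspo2 level was not tested.

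Frizzled receptor transcripts were highest in EMT6, at a sum of 119 ± 11.8 TPM (SD, n = 3) over the 10 genes, and lowest in LL2, at 27.4 ± 3.80 TPM. CMS5a had 78.3 ± 8.56 TPM, and the receptor in the lead changed with the line. Fzd7 led in 6 lines, Fzd6 in LL2, CT26NYESO1 and Renca, and Fzd2 gave 64.2% of the sum in CMS5a. In the melanoma lines, 7 (B16F1) and 6 (B16F10) of the 10 receptors averaged 1 TPM or more, against 2 and 0 of the 19 ligands.

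Fzd7, a receptor of stem cells in gut and mammary epithelium (chr1:59482424-59486955), was found in every library. The values were 34.0, 37.7 and 33.7 TPM in EMT6, 29.5, 25.0 and 28.2 TPM in B16F1 and 34.4, 21.1 and 25.0 TPM in B16F10. MC38 had 18.5, 19.6 and 11.5 TPM, MC38OVA 18.1, 15.3 and 14.4 TPM, CT26 22.8, 13.1 and 17 TPM and CT26NYESO1 14.9, 11.7 and 12.2 TPM. CMS5a had 11.6, 14.8 and 12.2 TPM, Renca 6.73, 11.3 and 12.5 TPM and LL2 6.04, 3.76 and 3.56 TPM. Neighbouring lines overlapped throughout except that all LL2 libraries lay below the rest. Fzd7 was called higher in EMT6 by 1.24 ± 0.18 (SE, adjusted p = 1.7e-06) and lower in LL2, where the difference was -1.82 ± 0.18 (adjusted p = 2.9e-09 in the limma fit).

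Fzd2, a receptor for Wnt5a and Wnt3a (chr11:102604396-102608058), was highest in CMS5a, at 48.9, 56.7 and 45.2 TPM. Next were EMT6 with 15.8, 8.13 and 11.6 TPM, CT26NYESO1 with 13.1, 9.58 and 9.58 TPM and CT26 with 7.36, 9.09 and 9.44 TPM. Renca had 8.03, 8.44 and 8.90 TPM, MC38 6.96, 10.6 and 4.52 TPM and MC38OVA 6.08, 6.92 and 5.63 TPM. CMS5a stood clear of every other line and the middle lines overlapped. B16F1 spread widely, at 3.25, 14.2 and 6.93 TPM, with the highest value in the library of most mitochondrial RNA (39.0%). LL2 had 2.46, 2.47 and 2.01 TPM and B16F10 1.92, 1.16 and 1.41 TPM. Fzd2 was called higher in CMS5a by 2.83 ± 0.23 (SE, adjusted p = 5.7e-11 in the limma fit) and lower in LL2 (-1.55) and B16F10 (-2.01).

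Fzd1, which takes part in β-catenin signalling (chr5:4753839-4758035), was highest in EMT6, at 39.3, 26.3 and 27.6 TPM. B16F1 followed at 5.21, 10.7 and 6.04 TPM, Renca at 1.80, 3.05 and 4.35 TPM and LL2 at 3.53, 2.97 and 2.59 TPM. MC38 had 1.74, 3.75 and 1.70 TPM, MC38OVA 2.54, 2.19 and 3.01 TPM and B16F10 1.92, 1.63 and 2 TPM. EMT6 stood clear of the rest, and B16F1 stood above the other 8 lines. CT26 had 0.818, 1.21 and 1.18 TPM, while CT26NYESO1 (0.703 to 0.988 TPM) and CMS5a (0.279 to 0.557 TPM) lay below 1 TPM in all libraries. Fzd1 was called higher in EMT6 by 3.36 ± 0.18 (SE, adjusted p = 1.7e-14 in the limma fit). It was also called higher in B16F1 by 1.17, a call lost without B16F1 replicate 2 (0.89). It was called lower in CMS5a (-1.58), CT26NYESO1 (-1.15) and CT26 (-1.01), and the last call was lost without CT26 replicate 1 (-0.91), B16F1 replicate 2 (-0.975), MC38 replicate 2 (-0.976), Renca replicate 3 (-0.981), EMT6 replicate 1 (-0.986), MC38OVA replicate 3, LL2 replicate 1 (both -0.996) or CMS5a replicate 2 (just short of -1).

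Fzd6, a receptor of planar cell polarity (chr15:39006034-39038188), split the lines most sharply at the low end. The values were 27.7, 25.3 and 27.3 TPM in EMT6, 14.4, 31.8 and 33.2 TPM in Renca and 26.6, 20.4 and 29.6 TPM in CT26NYESO1. CT26 had 16, 17.2 and 14.1 TPM, LL2 12, 11.3 and 10.2 TPM and B16F10 12.5, 7.66 and 9.47 TPM. CMS5a had 5.63, 5.72 and 5.37 TPM and B16F1 2.13, 1.99 and 1.10 TPM. MC38 and MC38OVA stood below all other libraries, at 0.109 to 0.222 TPM and 0.122 to 0.492 TPM, while EMT6, Renca and CT26NYESO1 overlapped at the top. Renca replicate 1 read less than the other Renca libraries for Fzd6, Fzd4 and Lrp5. Fzd6 was called lower in MC38, where the difference was -3.12 ± 0.18 (SE, adjusted p = 6.5e-14 in the limma fit), in MC38OVA (-2.91) and in B16F1 (-1.74). It was called higher in EMT6 (1.99), CT26NYESO1 (1.90), Renca (1.88) and CT26 (1.18). Fzd6 overlaps Gm26704 and Fzd5 overlaps Gm38058 on the opposite strand, so their levels carry the same doubt as those of Wnt6.

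Fzd4, the receptor of norrin in blood vessels (chr7:89404355-89413134), was highest in Renca, at 6.17, 15.4 and 14.0 TPM. EMT6 had 5.83, 4.17 and 3.81 TPM, CMS5a 3.77, 2.92 and 2.61 TPM, MC38 2.98, 3.36 and 2.21 TPM and MC38OVA 2.77, 2.69 and 2.98 TPM. LL2 (1.17 to 1.38 TPM), CT26 (0.483 to 0.904 TPM), CT26NYESO1 (0.829 to 1.04 TPM), B16F1 (0.622 to 1.12 TPM) and B16F10 (0.772 to 1.02 TPM) were lowest. Renca did not overlap with other lines, but its replicate 1 lay just above the highest EMT6 library. Fzd4 was called higher in Renca by 2.14 ± 0.17 (SE, adjusted p = 1.3e-11 in the limma fit).

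Fzd5, a receptor of Paneth cells and the eye (chr1:64730558-64737751), varied less. Values were 5.68, 6.24 and 5.84 TPM in EMT6, 5.99, 3.79 and 4.57 TPM in LL2 and 4.37, 3.61 and 4.27 TPM in CT26. MC38, MC38OVA, CT26NYESO1, CMS5a and Renca ran from 2.22 to 5.04 TPM. These 8 lines overlapped, and B16F1 (1.37, 0.746 and 0.978 TPM) and B16F10 (1.59, 0.640 and 1.21 TPM) lay below them all. Fzd5 was called lower in B16F1 (-1.14, adjusted p = 1.6e-06 in the limma fit) and in B16F10 (-1.07). The call in B16F10 was lost without B16F10 replicate 2 (-0.89) and under median-ratio scaling (-0.73). With both melanoma lines left out, the range of line means was 0.84 (log2) in place of 1.78, under the threshold of 1.

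The remaining Frizzled receptors were low. Fzd9 averaged 4.90 ± 1.19 TPM in B16F1, 2.16 ± 0.54 TPM in B16F10 (SD, n = 3), 2.05 TPM in MC38 and 1.41 TPM in MC38OVA, and at most 0.138 TPM in the other 6 lines. It was called higher in B16F1 (2.0) and B16F10 (1.0). The call in B16F10 was lost without B16F10 replicate 1 (0.89) or 2 (0.99), B16F1 replicate 2 (0.98), LL2 replicate 2 or MC38OVA replicate 3 (both 0.995), EMT6 replicate 1 or MC38 replicate 3 (both 0.999). Fzd3, a receptor of axon guidance, averaged 2.71 TPM in CT26, 2.58 TPM in CMS5a, 2.21 TPM in B16F1 and 1.23 TPM in CT26NYESO1, and at most 0.248 TPM elsewhere. It was called higher in CT26 (1.31), CMS5a (1.25) and B16F1 (1.07), the last lost without B16F1 replicate 1 (0.93). Fzd3 overlaps Gm27263 on the same strand and Gm9086 on the opposite strand, so its level is uncertain. Fzd8 averaged 3.94 TPM in EMT6 and at most 0.409 TPM elsewhere, and Fzd10 did not exceed 0.170 TPM.

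The co-receptors Lrp5 and Lrp6, which Dkk2 can bind, were found in all libraries. Lrp5 (chr19:3584828-3686564) measured 45.8, 31.0 and 32.3 TPM in LL2, 39.4, 30.3 and 29.7 TPM in EMT6, 22.2, 42.1 and 19.3 TPM in B16F1 and 27.6, 37.4 and 16.1 TPM in MC38. Renca had 9.53, 32.6 and 34.1 TPM, MC38OVA 26.8, 20.7 and 23.9 TPM and B16F10 27.4, 16.2 and 19.4 TPM. These lines overlapped, whereas of their libraries only Renca replicate 1 came down to the level of CT26 (10.5, 7 and 8.17 TPM) and CT26NYESO1 (10.8, 5.94 and 10.7 TPM). CMS5a was lowest (4, 6.12 and 3.45 TPM) and overlapped with CT26NYESO1. Lrp5 was called lower in CMS5a, where the difference was -2.0 ± 0.27 (SE, adjusted p = 8.9e-07 in the limma fit). Calls in LL2 (1.08), CT26 (-1.11) and CT26NYESO1 (-1.04) each rested on single libraries. Without LL2 replicate 1 the first was 0.90, and without CT26 replicate 2 the second was -0.99. The third was -0.78 without CT26NYESO1 replicate 2 (adjusted p = 0.062 in the limma fit) and -0.999 without B16F1 replicate 2.

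Lrp6 (chr6:134446476-134566965) measured 45.8, 42.0 and 34.1 TPM in B16F1, 30.2, 26.8 and 24.0 TPM in LL2, 29.3, 29.7 and 17.8 TPM in CMS5a and 33.0, 16.3 and 17.2 TPM in B16F10. CT26 had 24.7, 20.3 and 20.8 TPM, CT26NYESO1 24.2, 16.8 and 24.7 TPM and EMT6 20.8, 18.7 and 20.9 TPM. MC38 had 16.3, 19.7 and 11.2 TPM, MC38OVA 16, 17.3 and 15.9 TPM and Renca 9.15, 14.4 and 14.0 TPM. B16F1 stood above the other 27 libraries and all other lines overlapped in sequence. Lrp6 was called higher in B16F1 by 1.01 ± 0.18 (SE, adjusted p = 3.4e-05 in the limma fit), at the edge of the threshold. Without any 1 of 9 libraries, namely B16F1 replicate 1 (0.92) and 2 (0.98), Renca replicate 1, MC38 replicate 3, CMS5a replicate 3, LL2 replicate 3, CT26NYESO1 replicate 2, and B16F10 replicate 2 or 3, the difference lay between 0.92 and 1 and the call was lost.

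Among the antagonists, 2 Dickkopfs reached high levels in different lines. Dkk2, which binds Lrp5 and Lrp6 (chr3:132085292-132180304), was highest in LL2, at 360, 302 and 268 TPM. CT26 had 72.3, 68.9 and 55.1 TPM, CT26NYESO1 20.9, 19.5 and 27.3 TPM and CMS5a 20.4, 17.7 and 14.0 TPM. In Renca (0.336 to 0.450 TPM), MC38 (0.119 to 0.213 TPM), MC38OVA (0 to 0.229 TPM), EMT6 (0.0632 to 0.141 TPM) and B16F1 (0 to 0.166 TPM) it lay below 1 TPM, and in B16F10 it was listed at 0 in all 3 libraries. LL2 stood clear of CT26, CT26 of the next lines, and CT26NYESO1 and CMS5a overlapped. Dkk2 was called higher in LL2 by 6.51 ± 0.13 (SE, adjusted p = 5.8e-24 in the limma fit), in CT26 by 4.03, in CT26NYESO1 by 2.36 and in CMS5a by 1.96. The last 2 are differences of mean logs: in TPM, CT26NYESO1 averaged 22.6 against 43.8 and CMS5a 17.3 against 44.3 over the other lines, means that LL2 dominates. Dkk2 was called lower in all 6 lines below 1 TPM, against the same mean. The 8 fibroblast markers, all 8 at a mean of 1 TPM or more in each of these lines, summed to 3306 to 4284 TPM a library in LL2, 1331 to 1382 TPM in CT26, 727 to 1067 TPM in CT26NYESO1 and 4479 to 5755 TPM in CMS5a. In EMT6, where Dkk2 did not exceed 0.141 TPM, they summed to 1736 to 2709 TPM. The part of fibroblasts in the Dkk2 level was not tested.

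Dkk3, a divergent Dickkopf for which binding to the Lrp co-receptors is not established (chr7:112116017-112159057), was highest in CMS5a, at 91.3, 102 and 103 TPM. B16F10 had 68.1, 44.4 and 61.9 TPM and Renca 2.90, 1.89 and 2.59 TPM. The 21 libraries of the other 7 lines, B16F1 included, lay below 1 TPM (0.0907 to 0.996), so CMS5a, B16F10, Renca and the rest formed 4 levels with no overlap. Dkk3 was called higher in CMS5a by 5.44 ± 0.13 (SE, adjusted p = 3.4e-22 in the limma fit) and in B16F10 by 4.58. It was called lower in MC38, MC38OVA, EMT6, LL2, CT26NYESO1 and B16F1, from -1.37 to -1.63, against a mean that holds the 2 high lines. The same fibroblast markers were at their highest in CMS5a and at their lowest in B16F10 (7.06 to 21.0 TPM a library, 5 of 8 at a mean of 1 TPM or more). CMS5a is a fibrosarcoma line, and line and fibroblast marker RNA cannot be told apart there. The part of fibroblasts in the Dkk3 level was not tested.

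Sfrp5, which binds Wnt ligands outside the cell (chr19:42197971-42202252), was found in Renca, at 17.7, 13.2 and 13.6 TPM. B16F1 had 0.118, 0.463 and 0.275 TPM, 1 library each of LL2 and B16F10 had 0.0365 and 0.0348 TPM, and the other 22 libraries were listed at 0. Renca thus stood alone, higher by 3.93 ± 0.08 (SE, adjusted p = 4.8e-25 in the limma fit), a size that rests on the pseudocount. Sfrp5 passed the filter through Renca alone, so the p-value is no separate support for this difference. Sfrp2, a fibroblast product that overlaps Gm26771, averaged 4.65 ± 0.66 TPM in Renca (SD, n = 3), 2.14 ± 0.98 TPM in MC38OVA and 0.0145 TPM in B16F10, and was called higher in Renca (1.62) and lower in B16F10 (-1.12). Sfrp1 and Sfrp4 reached highest line means of 1.34 TPM (MC38OVA) and 1.24 TPM (Renca) and were called in no single line. The call of Sfrp1 over the 10 lines (range 1.10) was lost without MC38OVA replicate 1 (0.95) or 3 (0.94) and without the melanoma lines (0.83). Wif1 did not exceed 0.642 TPM in any library.

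In EMT6, 13 of the 26 tested members were called against the other 9 lines, 11 higher and 2 lower, where 14.9% of all genes tested were called (10.2% higher and 4.7% lower). Of these, Fzd8, Rspo2, Wnt5b and Wnt11 were tested through EMT6 alone. The filter thus fixed that they were higher there, though not by how much, and their calls are no separate support. Leaving out the 5 members that passed the filter through 1 line, 9 of 21 were called, 7 higher and 2 lower, fewer than in B16F1 (12), LL2 (10) and B16F10 (10). Among the 21, 4 of 6 ligands (Wnt7b, Wnt9a, Wnt10a and Wnt10b) and 3 of 8 Frizzled receptors (Fzd1, Fzd6 and Fzd7) were higher in EMT6. The median difference was 0.57 for the 21, 0.86 for all 26 tested members and 0.04 for all genes. The values over all genes keep those that passed the filter through 1 line. In EMT6 the split of all called genes moved from 68.5% higher to 55.8% when TPM were rescaled without mitochondrial and haemoglobin transcripts, while the members' split stayed at 11 and 2. Median-ratio scaling moved the median of all genes in EMT6 by -0.12 and ended the call of Wnt5b (0.995), which left 10 higher and 2 lower.

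In LL2, 10 members were called, 5 higher and 5 lower (background 14.5%, or 7.98% higher and 6.53% lower), with Dkk2, Wnt7b, Wnt5a, Wnt9a and Lrp5 higher and Wnt10a, Fzd7, Dkk3, Fzd2 and Wnt6 lower. Renca had 9 called, 7 higher and 2 lower (background 22.9%, or 12.4% higher and 10.5% lower). Sfrp5 was tested through Renca alone, and of the 21 members that reached 1 TPM in more than 1 line 8 were called there, 6 higher and 2 lower, led by Fzd4 and Wnt6. CMS5a had 8 (background 13.7%, or 9.23% higher and 4.49% lower), 5 higher and 3 lower, led by Dkk3 and Fzd2. CT26 had 7 (background 13.2%, or 8.25% higher and 4.91% lower) and CT26NYESO1 7 (12.6%, or 6.84% higher and 5.71% lower), and both had Wnt10a, Dkk2 and Fzd6 higher and Wnt7b, Lrp5 and Fzd1 lower. MC38 had 5 (background 12.3%, or 8.24% higher and 4.06% lower) and MC38OVA 5 (13.8%, or 10.2% higher and 3.59% lower), with Wnt6 higher and Fzd6, Dkk2, Dkk3 and Wnt7b lower in both. Each line of a related pair is also part of the mean the other was compared with.

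The melanoma lines had the most lower calls, among members as among all genes tested. In B16F1, 12 were called, 4 higher (Fzd9, Fzd1, Fzd3 and Lrp6) and 8 lower, with a background of 21.7% (8.52% higher and 13.2% lower), and none of the higher was a ligand. In B16F10, 10 were called, 2 higher (Dkk3 and Fzd9) and 8 lower, where 28.5% of all genes were called, 5.28% higher and 23.2% lower. The median difference in B16F10 was -0.49 for the 26 tested members and -0.48 for all genes. For the 21 members that reached 1 TPM in more than 1 line it was -0.59. Median-ratio scaling moved the median of all genes there by 0.33 and the share of called genes that were higher from 18.6% to 40.8%, with 3 members then higher and 7 lower. Besides Wnt5b in EMT6 and Fzd5 in B16F10, each member called in a line kept its direction and its call under both other scalings. Melanocyte marker sums ran from 1376 to 6466 TPM in B16F1 and from 8799 to 12703 TPM in B16F10, with 5 of 5 genes present, and line and melanocyte RNA cannot be told apart here.

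**Figure D3:**
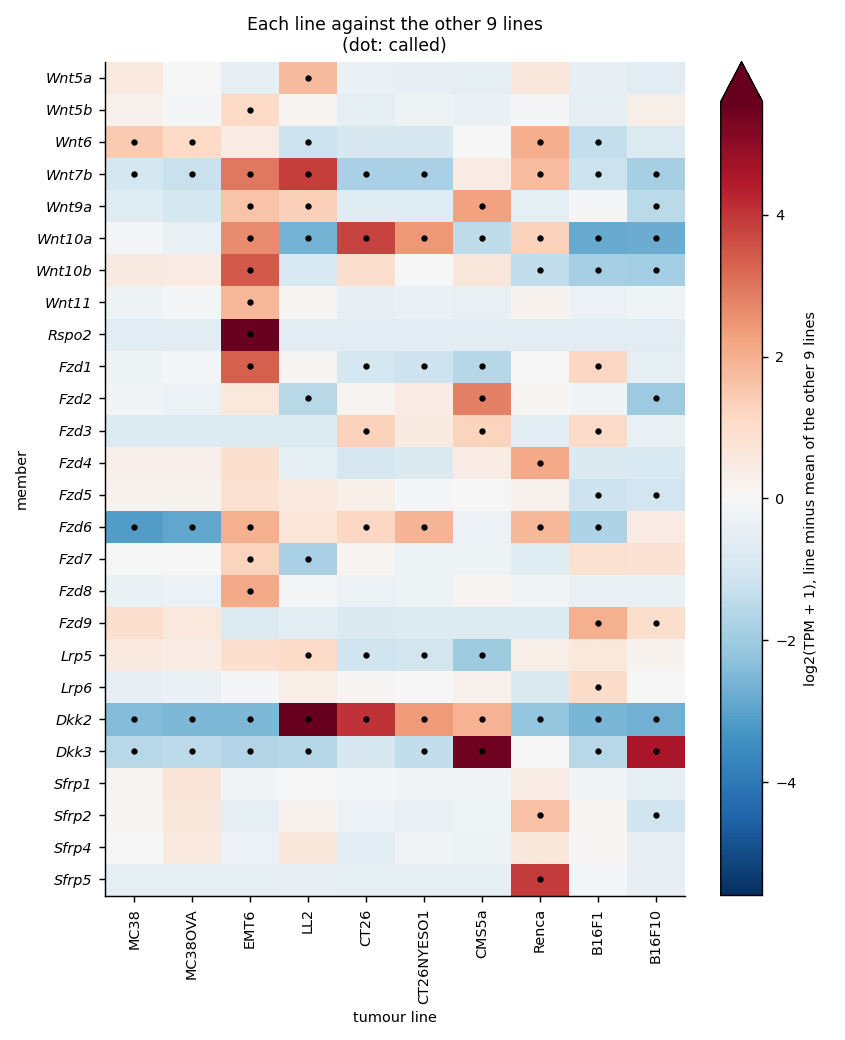
Difference of each line from the mean of the other 9 lines on the log2(TPM + 1) scale, for the 26 tested members (rows) and 10 lines (columns). Red is higher, blue is lower, dots mark called differences, and the colour is saturated above the end of its bar, which only Dkk2 in LL2 (6.51) passes. Higher calls are most frequent in the EMT6 column (11, of which 4 belong to members tested through EMT6 alone) and lower calls in the B16F1 and B16F10 columns (8 each).

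Within the 3 pairs of related lines, the members changed least between MC38OVA and MC38. None of the 26 was called by limma in that pair, where 1.31% of all genes were (1.14% higher and 0.167% lower), and 3 had an unadjusted p under 0.05 (Fzd9, Sfrp1 and Wnt5a), with differences between -0.51 for Wnt5a and 0.54 for Sfrp1. A p above the threshold does not show that the levels were equal.

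In CT26NYESO1 against CT26, 2 members were called, both lower, where 2.27% of all genes were called, 0.379% higher and 1.89% lower. Dkk2 averaged 65.4 ± 9.14 TPM in CT26 and 22.6 ± 4.19 TPM in CT26NYESO1 (SD, n = 3), a difference of -1.5 ± 0.17 (SE, adjusted p = 5.8e-07 in the limma fit). Wnt10a averaged 60.4 ± 3.11 TPM and 25.4 ± 0.34 TPM, a difference of -1.22 ± 0.16 (SE, adjusted p = 1.1e-05 in the limma fit). In both genes the 3 CT26 libraries lay above the 3 of CT26NYESO1. Leukocyte marker sums were 740 to 993 TPM in CT26 and 821 to 857 TPM in CT26NYESO1, and those of fibroblasts were 1331 to 1382 TPM and 727 to 1067 TPM. The part of fibroblasts in these differences was not tested. When the change from MC38 to MC38OVA was set against that from CT26 to CT26NYESO1, Dkk2 was the 1 member called, where 2.62% of all genes were (2.22% in its direction and 0.396% in the other). Dkk2 lay below 1 TPM in MC38 and MC38OVA, where no such fall was possible.

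B16F10 against B16F1 had 7 members called, 2 higher and 5 lower, where 20.9% of all genes were called (4.53% higher and 16.4% lower). Under median-ratio scaling the median of all genes in this pair moved by 0.21 and the share of called genes that were higher went from 21.7% to 41.4%, with 7 members still called. Dkk3 rose from 0.271 ± 0.18 TPM in B16F1 to 58.1 ± 12.3 TPM in B16F10 (SD, n = 3), by 5.53 ± 0.18 (SE, adjusted p = 3.9e-19 in the limma fit), and Fzd6 rose by 1.99. Fzd1 (-1.49), Fzd3 (-1.35) and Wnt9a (-1.27) fell. Fzd2 (-1.69) was also called, but its B16F1 libraries spread from 3.25 to 14.2 TPM, and in a fit of the 6 libraries alone its adjusted p was 0.065. Sfrp2 (-1.10, adjusted p = 0.0079 in limma) had an adjusted p of 0.14 in that fit. Without B16F1 replicate 2 its difference was -0.61 (adjusted p = 0.099 in limma). That library held 39.0% mitochondrial RNA, the most of all 30, and a Sfrp2 level of 3.34 TPM. The melanocyte marker sums given above differed between these lines as well. The 8 fibroblast markers summed to 74.5 to 242 TPM a library in B16F1 (7 of 8 genes averaging 1 TPM or more) and 7.06 to 21.0 TPM in B16F10 (5 of 8), and the 4 pericyte and smooth muscle markers to 16.9 to 45.8 TPM (3 of 4) and 4.1 to 4.68 TPM (2 of 4). The 5 endothelial markers summed to 8.35 to 8.61 TPM (4 of 5) and 0.648 to 1.92 TPM (0 of 5), the 5 macrophage markers to 342 to 872 TPM and 127 to 418 TPM (5 of 5 in both), and no gene of these lists was at 0 in all libraries of either line. The part of these cells in the differences was not tested.

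**Figure D4:**
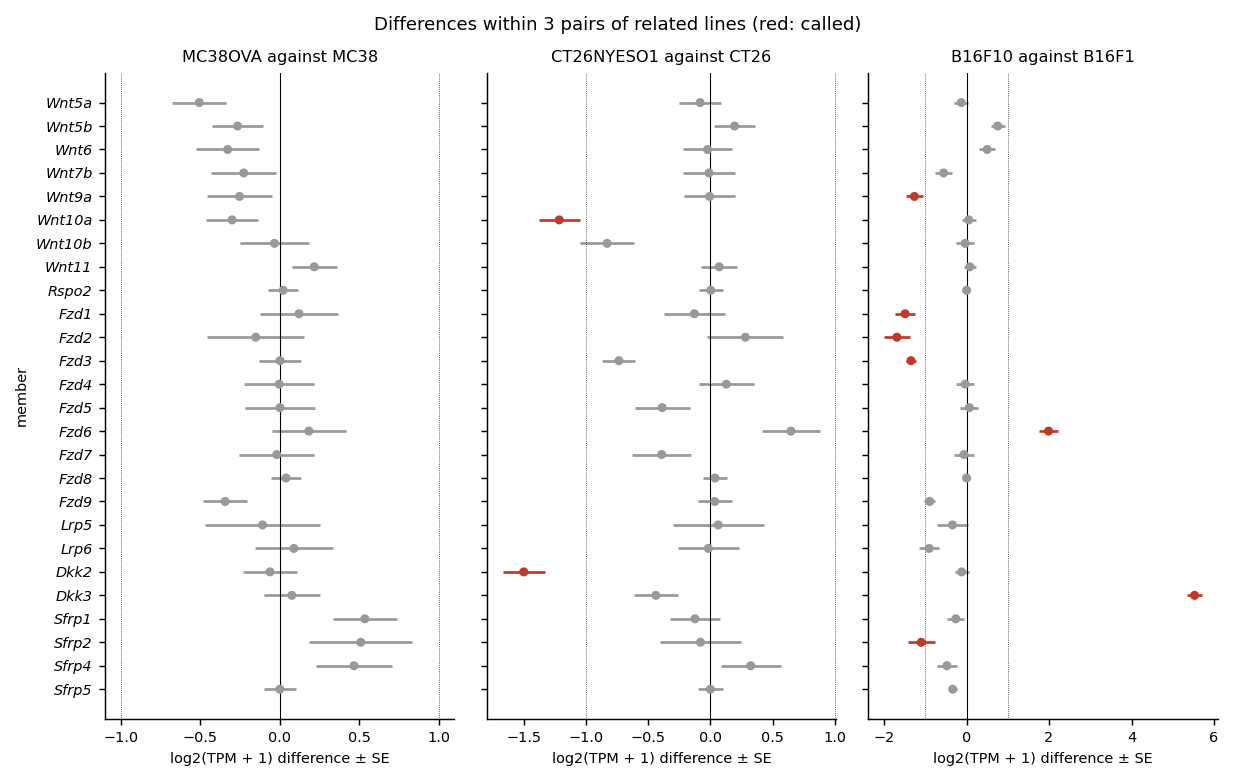
Difference of the 26 tested members within 3 pairs of related lines on the log2(TPM + 1) scale, with bars for the SE of the limma fit, red for called members and dotted lines at -1 and 1 (the panels have different scales). No member is called between MC38OVA and MC38, Dkk2 and Wnt10a are called between CT26NYESO1 and CT26, and Dkk3 has the largest difference of the B16 pair (5.53).

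Other genes of the pathway, 38 in 7 lists outside the symbol rule, were read the same way. Of the 31 tested, 29 were called over the 10 lines, all but the kinases Gsk3a and Gsk3b, where 85.5% of all genes were called. The call of the kinase Csnk1a1 was lost under median-ratio scaling (0.85), after rescaling (0.88) and without Renca replicate 1 (0.97). Median ranges of line means (log2) were 3.30 for the 3 genes of Wnt secretion (3 called), 2.42 for 3 other Wnt receptors (3 called), 2.58 for 4 R-spondin receptors and their ubiquitin ligases (4 called), 4.05 for 4 other extracellular inhibitors (4 called) and 2.77 for 4 TCF/LEF factors (4 called). They were 3.53 for 3 feedback targets (3 called) and 1.35 for 10 cytoplasmic transducers (8 called), against 1.71 for all genes.

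Notum and Axin2, which β-catenin signalling is known to induce, reached their highest levels in Renca and EMT6, the lines that also had the highest epithelial marker sums (given above with Wnt7b). The part of epithelial cells in them was not tested. Notum, an enzyme that inactivates Wnt proteins, averaged 26.7 ± 2.92 TPM in Renca and 6.14 ± 1.57 TPM in EMT6 (SD, n = 3) and at most 0.697 TPM elsewhere, and was called higher in Renca by 4.33 and in EMT6 by 2.14. Axin2, a feedback inhibitor of β-catenin that was picked after its values were seen, averaged 8.89 ± 1.18 TPM in Renca, 7.19 ± 2.50 TPM in EMT6, 3.13 TPM in B16F10 and 2.81 TPM in LL2, and at most 0.472 TPM elsewhere. It was called higher in Renca (2.28) and EMT6 (1.93). Rnf43, a ubiquitin ligase that removes Frizzled receptors, averaged 17.3 ± 4.01 TPM in Renca and at most 1.77 TPM elsewhere (difference 3.60). The lists did not move as 1 block: Ccnd1, a cell cycle gene, was lowest in Renca at 52.7 ± 14.3 TPM (-1.79) and highest in CT26NYESO1 and CT26, at 606 ± 59.5 TPM and 543 ± 65.0 TPM. Nkd2, an inhibitor of Dvl proteins, averaged 15.3 ± 2.65 TPM in B16F1 and at most 1.64 TPM elsewhere.

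**Figure D5:**
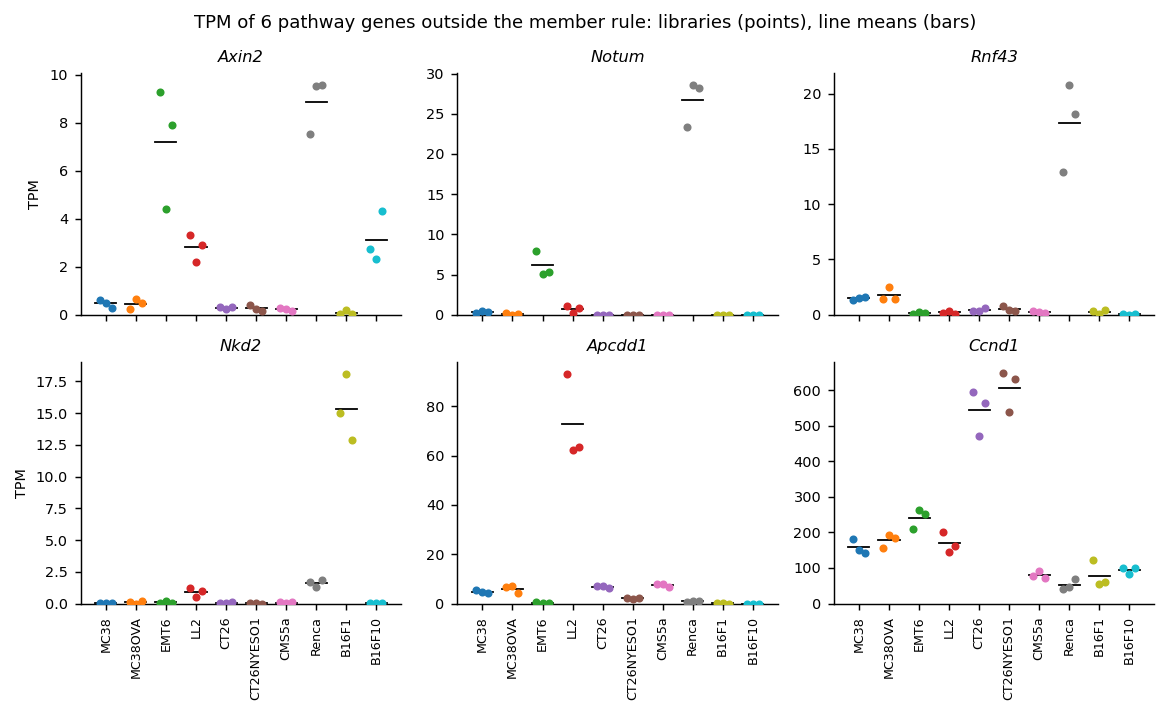
TPM (linear axes, starting at 0) of 6 pathway genes outside the symbol rule, with 1 point a library and black bars for line means. Notum and Rnf43 are highest in Renca, Axin2 in Renca and EMT6, Nkd2 in B16F1, Apcdd1 in LL2 and Ccnd1 in CT26 and CT26NYESO1.

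Wls, the carrier that brings Wnt proteins to the cell surface, was highest in LL2 at 280 ± 47.6 TPM and lowest in B16F1 at 50.9 ± 9.40 TPM. Apcdd1, a membrane inhibitor of Wnt receptors, averaged 73.0 ± 17.6 TPM in LL2 (4.59), the line with most Dkk2, and at most 7.50 TPM elsewhere. Tpbg, another membrane inhibitor, and the receptor Ptk7 averaged 0.186 TPM and 0.441 TPM in B16F1, and in B16F10 Tpbg was listed at 0 and Ptk7 averaged 0.162 TPM, against at least 7.52 TPM and 1.36 TPM in the other lines. Ryk, a Wnt receptor related to kinases, was highest in CMS5a and EMT6 at 131 and 128 TPM. Lgr4, the R-spondin receptor, was highest in B16F1 at 13.9 ± 3.35 TPM and measured 4.29 ± 0.47 TPM in EMT6, the line with Rspo2. Ctnnb1, the gene of β-catenin, was called higher in B16F10 alone, by 1.06, at 525 ± 107 TPM, a call lost without B16F10 replicate 1 (0.90). Csnk1a1 ran from 103 TPM in Renca to 220 TPM in EMT6. Of the nuclear partners of β-catenin, Tcf7l1 averaged 15.4 TPM in B16F1, 15.1 TPM in LL2 and 14.5 TPM in MC38 but 0.0922 to 0.889 TPM in CT26NYESO1, CT26, Renca and CMS5a. Tcf7l2 averaged 0.632 ± 0.27 TPM in Renca and at least 3.35 TPM in the other lines.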

How the data were processed

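The deposited table holds 1 TPM value per gene and library for 30 libraries, calculated by the authors; per the submitters' processing notes the tools were Trim Galore 0.6.5, STAR 2.7.3a and StringTie 2.1.2 on mm10, and no source used here names the gene annotation. RNA came from digested tumours and was made into libraries with a kit that keeps strand, per the labels' protocols. TPM sum to the same total in each library and keep no read counts, so no count test, interval or detection floor was possible. No columns were left unused and no libraries held identical values.

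Genes with at least 1 TPM in at least 3 libraries were tested. limma 3.58.1 in R 4.3.3 (trended prior variance) was fitted to log2(TPM + 1) with 1 mean per line over all 30 libraries, which left 20 residual degrees of freedom. The comparisons were an F test across all lines, single lines set against the average of their 9 counterparts, the 3 related pairs and, added after seeing the data, the difference between the antigen pairs. p-values were adjusted by the Benjamini-Hochberg method over all genes tested. Called genes had an adjusted p under 0.05 and a log2 difference, or for the F test a range of line means, of at least 1. The fit was tested on simulated data. Other steps used Python 3.11.15 with numpy 2.4.6, pandas 2.3.3 and matplotlib 3.10.9.

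The members, the pathway lists and the marker lists were chosen with earlier results of these data known. Every library's value was given for the 17 members called over the lines with a line mean of 5 TPM or more, with lines wholly below 1 TPM, or close together, given as ranges; other members were given by line means, ranges and counts, with all called members accounted for. Pathway genes were named as the 2 with the widest range of line means in TPM in each list (on the log2 scale Porcn, Ror2, Dvl1 and Dvl2 would have stood in place of Wls, Ryk, Ctnnb1 and Csnk1a1); Axin2, Gsk3a and Gsk3b fell outside that rule and were chosen after their values were seen. Gene positions are those of GENCODE M21 and promoters those of RefSeq. Replicate numbers were not used to pair samples. Deviations of same-numbered libraries within the 3 pairs correlated between -0.12 and 0.42. Between all lines they ran from -0.47 to 0.42 for same-numbered and from -0.5 to 0.53 for differently numbered libraries. With 3 libraries a line, such values cannot show whether samples were paired. The alternatives were 2 other scalings, a pseudocount of 0.1, no filter, adjusted p alone, a replicate block, other references and sets of lines, and leaving out each library.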

Additional observations from a re-analysis of the deposited data

Results flagged for a closer look

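The change of Dkk2, the antagonist that binds Lrp5 and Lrp6, from parent line to antigen-carrying line differed between the 2 antigen pairs. Dkk2 was lower in CT26NYESO1 than in CT26 by 1.5 on the log2(TPM + 1) scale, whereas in MC38 and MC38OVA no library exceeded 0.229 TPM. At that level no fall of such size was possible in the MC38 pair. The difference between the pairs therefore restates the fall in CT26NYESO1 and is no separate support for it. The difference between the changes, MC38OVA minus MC38 less CT26NYESO1 minus CT26, was 1.44 (adjusted p = 0.00047 in the limma fit, 3 libraries a line). With a pseudocount of 0.1 it was 1.12 (adjusted p = 0.32 in the limma fit), and the call was lost.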

How the results depend on the processing

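The alternatives were followed for 197 calls, those of members, of the pathway genes named by rule and of Axin2. None of these changed direction under any alternative, and 171 were kept under all of them. The calls of Frzb were not among the 197. A pseudocount of 0.1 gave more called members in MC38 (11), MC38OVA (13), EMT6 (20), CT26 (16), CT26NYESO1 (14), CMS5a (16), Renca (16), B16F10 (18), the B16 pair (12), and by a smaller factor in LL2 (15), B16F1 (17) and the CT26 pair (3). Calls rose over all 17944 genes tested as well, to 3962 in MC38, 4192 in MC38OVA, 4722 in EMT6, 4682 in LL2 and 4227 in CT26. They rose to 4239 in CT26NYESO1, 4233 in CMS5a, 6450 in Renca, 6065 in B16F1 and 8173 in B16F10. In the pairs they rose to 598 for CT26 and 5696 for B16, but in MC38OVA against MC38 they fell from 235 to 66. That pair had 159 genes called under median-ratio scaling and 1 in a fit of its 6 libraries alone. Adjusted p alone, with no minimum difference, gave 15 in MC38, 16 in MC38OVA, 22 in EMT6, 19 in LL2, 20 in CT26, 17 in CT26NYESO1, 16 in CMS5a, 18 in Renca, 19 in B16F1, 23 in B16F10, 4 in CT26NYESO1 against CT26 and 13 in B16F10 against B16F1. Of all genes tested it called 7821 in MC38, 7473 in MC38OVA, 8315 in EMT6, 8815 in LL2 and 7650 in CT26. It called 7699 in CT26NYESO1, 7728 in CMS5a, 10906 in Renca, 10183 in B16F1 and 12510 in B16F10. In the pairs it called 389 genes for MC38, 883 for CT26 and 7154 for B16. Leaving out 1 library at a time gave 4 to 5 in MC38, 5 to 6 in MC38OVA, 12 to 14 in EMT6, 9 to 10 in LL2, 6 to 8 in CT26, 6 to 7 in CT26NYESO1, 8 in CMS5a, 9 in Renca, 10 to 12 in B16F1 and 8 to 10 in B16F10. In the pairs it gave 0 in MC38OVA against MC38, 2 to 3 in CT26NYESO1 against CT26 and 7 to 9 in B16F10 against B16F1. Over the lines it gave 25 to 26 members and 28 to 29 pathway genes. Counts over all genes are not given for these fits. With the replicate number as a block, 26 members were called over the lines, 13 in EMT6 and 7 in the B16 pair. The block ended none of the 197 calls, and over all genes tested it called 15339, 2674 and 3747. Among pathway genes, calls were also lost for Ryk in MC38OVA without MC38OVA replicate 2 (-0.93), Apcdd1 in CT26 (1.004) under median-ratio scaling (0.957), with CT26NYESO1 out of the reference (0.97) and without any of 11 libraries (0.977 to 0.999), Apcdd1 in Renca at pseudocount 0.1 (-0.99) and Axin2 in CT26NYESO1 (-1.005) without any of 11 libraries (from -0.952). In the B16 pair, median-ratio scaling ended the calls of Lgr4 (-0.91), Tcf7l1 (-0.80) and Tcf7l2 (-0.997). Tcf7l1 was also lost without B16F1 replicate 1 (-0.999) or B16F10 replicate 3 (-0.90) and in the 6 libraries alone, which gave 5 members. In that fit 2596 of all genes tested were called, against 3750 with all 30 libraries. Without the melanoma lines 24 of 26 members were called over the lines, where 12935 of the 17944 genes tested were called. Depth is unknown, so members below 1 TPM were not tested and cannot be called absent.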

Other observations

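Some members lie side by side in the genome, and some neighbours differed in level. Wnt6 and Wnt10a lie 6193 bp apart on the same strand of chromosome 1. CT26 had the most Wnt10a (60.4 TPM) with a Wnt6 mean below 1 TPM, and Renca had the most Wnt6 with 11.9 TPM of Wnt10a. Wnt9a, at up to 12.4 TPM in CMS5a, lies 16175 bp from Wnt3a, which did not exceed 0.126 TPM in any library. Wnt10b, at up to 32.4 TPM in EMT6, lies 11706 bp from Wnt1, which did not exceed 0.130 TPM. Wnt3 and Wnt9b, 24328 bp apart on chromosome 11, were both near 0, at no more than 0.0647 and 0.0382 TPM.

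Frzb, a secreted Frizzled-related protein that the symbol rule did not take in and that was chosen after its values were seen, averaged 5.35 ± 0.79 TPM in LL2 (SD, n = 3) and 5.01 TPM in B16F10, and was listed at 0 in all B16F1 libraries. It was called higher in LL2 (2.34) and in B16F10 (2.23) than in the other lines, and higher in B16F10 than in B16F1 (adjusted p = 2.1e-15 in the limma fit). B16F10 was thus the line with more RNA of Frzb and of Dkk3 than its sister line, in which Dkk3 averaged 0.271 TPM. The calls of Frzb were not followed through the processing alternatives.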
